A study of Mus musculus with 18 samples.

Results

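10 genes of the actin cytoskeleton and the growth cone were followed through ribosome footprints and mRNA of developing cortical neurons. They were chosen by name, as the rows of the count files for Actb, Actg1, Cfl1, Pfn1, Pfn2, Tmsb10, Marcks, Marcksl1, Gap43 and Basp1, which make 10 of the 24035 genes named in each file. All 10 were found, and all 10 passed the filter on low counts in both assays. The neurons came from C57BL/6 mice. At embryonic day 14 the cortex received an MTOR construct by in utero electroporation, and at embryonic day 18 the electroporated neurons were isolated by flow cytometry. The construct was WT, C1483Y or L2427P, where the last 2 names are amino acid substitutions in MTOR, the kinase of the mTOR complexes. Every group shares the electroporation, the sort, the strain and both ages, and the labels describe no group without a construct. The labels name neither the promoter of the construct nor its species, do not say whether embryos were pooled for a library, and do not describe removal of the neurons' own Mtor. Ribosome footprints, the pieces of mRNA that ribosomes protect from RNase I, and heat-fragmented mRNA were each sequenced in 3 libraries per construct, 18 libraries in 6 groups. The study compared the constructs in transcriptome and translatome.

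Cytoplasmic β-actin (Actb) and γ-actin (Actg1) polymerise into the filaments that fill the growth cone, the motile tip of a growing axon. Cofilin (Cfl1) severs old filaments, profilins (Pfn1 and Pfn2) load actin monomers onto growing ends, and thymosin β10 (Tmsb10) binds monomers and holds them in reserve. Marcks, Marcksl1, Gap43 and Basp1 encode myristoylated or palmitoylated proteins of the inner plasma membrane that bind acidic lipids and are abundant in growth cones. The mTOR complexes promote protein synthesis, most strongly for mRNAs that begin with a 5′ terminal oligopyrimidine (TOP) run, a C followed by pyrimidines.

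Footprint libraries held 7695442 to 34094913 counts and mRNA libraries 18627076 to 53283035 counts on named genes. In footprint library C1483Y replicate 3 the values are displaced against the gene names after position 5400, so that library entered no test and is given only for the 4 of 10 genes before that position, Actb, Actg1, Cfl1 and Basp1. All counts of footprint library WT replicate 3 are multiples of 3, so its total, the highest of the footprint libraries, may overstate its depth, and the next highest was 23858123. Abundant genes were missing from single libraries: of the 5000 most abundant genes, 0.44% to 16.64% were at 0 in the 8 footprint libraries used and 0.32% to 51.6% in the 9 mRNA libraries, where L2427P replicate 3 was the highest. Markers of projection neurons (10 of 10 listed genes in the files) summed to 8877 to 12261 CPM in footprints and 4310 to 6905 CPM in mRNA. CPM is a gene's counts per 1000000 counts of the library on named genes. In this list Tubb3 alone had a mean of 4972 CPM in footprints and 3241 CPM in mRNA. The sums thus rest in large part on a single gene and do not show the type of neuron. The other marker lists reached at most 1663 CPM (cortical progenitors) in footprints and 882 CPM (astrocytes) in mRNA. The haemoglobin genes Hbb-bs, Hbb-bt, Hba-a1 and Hba-a2 were at 0 in both assays. The erythroid list that holds them still reached 174 CPM in a C1483Y footprint library and 86.4 CPM in a WT mRNA library. Those zeros alone do not show that blood cells were absent. Mtor counts may include the construct. Mtor footprints were at 3020.5 to 4242 CPM in WT, 2147 to 2881 CPM in C1483Y and 730 to 2681 CPM in L2427P. Mtor mRNA overlapped between the constructs, at 455 to 655 CPM in WT, 281 to 787 CPM in C1483Y and 297 to 587 CPM in L2427P. In the footprint tests below, 0 of 10315 genes were called between the constructs. Whether the Mtor ranges reflect the level of the construct was not tested.

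The first bases of the mRNA are shown because a TOP run sits at the first base. They are given for the 3 genes whose footprint level differed most from their mRNA level (Cfl1, Tmsb10 and Marcksl1, described further down). RefSeq's table of start sites (GRCm38.p6, the assembly of mm10) had entries for 7 of the 10 genes, with 9 starts. Actb, Marcks and Gap43 have no entry. Lower case marks the 20 bases before the annotated start and capitals the first 20 transcribed bases. The Cfl1 window is chr19:5490435-5490474 on the plus strand and the Marcksl1 window chr4:129513561-129513600 on the plus strand. The windows of the 3 annotated Tmsb10 starts, all on the minus strand, are chr6:72958729-72958768, chr6:72958464-72958503 and chr6:72958213-72958252.
Cfl1: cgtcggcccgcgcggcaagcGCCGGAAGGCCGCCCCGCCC
Marcksl1: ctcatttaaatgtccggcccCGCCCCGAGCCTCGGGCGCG
Tmsb10 start 1: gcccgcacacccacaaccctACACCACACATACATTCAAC
Tmsb10 start 2: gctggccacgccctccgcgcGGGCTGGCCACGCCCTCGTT
Tmsb10 start 3: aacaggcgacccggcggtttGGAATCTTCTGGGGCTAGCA
The capitals begin with G, C, A, G and G, and the one that begins with C, in Marcksl1, goes on with a G. A C at the first base followed by 4 bases that are each C or T, read on the transcribed strand only, was found at 0 of the 9 starts of the 7 genes. It was found at 2.51% of all 32851 starts in the table and at 18.7% of the 75 starts of cytosolic ribosomal protein genes, the classical TOP mRNAs, so the annotated starts hold it for a minority even of those. The match describes these letters at the annotated first base only.

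Actb, on chromosome 5 (142903115 to 142907976), varied little between libraries. Its footprints were at 7649, 7923 and 7686 CPM in WT, at 5858 and 9614 CPM in C1483Y and at 6810.5, 10615 and 8231 CPM in L2427P. The WT libraries lay close together, and the mutant libraries fell on both sides of them. The displaced C1483Y library, in which Actb is still in place, had 6606 CPM. In mRNA, Actb was at 4437, 7888 and 4899.9 CPM in WT, at 8909, 4701 and 6842 CPM in C1483Y and at 8417, 7662 and 6299 CPM in L2427P. The groups overlapped, and the highest library was 2.01 times the lowest in mRNA and 1.81 times in footprints.

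Actg1, on chromosome 11 (120345687 to 120348495), had its lowest footprint value in WT replicate 1. Footprints were at 1985, 4551 and 3227 CPM in WT, 3772 and 4563 CPM in C1483Y (3515 CPM in the displaced library) and 4238, 5064 and 4078 CPM in L2427P. Its mRNA ranged from 1669.5 CPM in L2427P replicate 3, the library with the most missing genes, to 4949 CPM in C1483Y replicate 1. The ratio of Actb to Actg1 counts had a median of 2.02 over the 9 footprint libraries and 1.82 over the 9 mRNA libraries. It also depends on the lengths of both mRNAs, so it says nothing of which is more abundant. Its highest values stood apart, 3.85 in footprint library WT replicate 1 and 3.77 in mRNA library L2427P replicate 3, where Actg1 was at its lowest. The actins are closely related in sequence and RefSeq names an Actb pseudogene. How reads that align to more than one of these genes were split was not tested.

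Cfl1, on chromosome 19 (5490455 to 5494031), had the most even footprints of the 10 genes, with a coefficient of variation of 14.6% over 8 libraries. Its footprints were at 1595, 1447 and 1871 CPM in WT, 2275 and 1553 CPM in C1483Y, and 1934, 1818 and 1850.3 CPM in L2427P, with 1874 CPM in the displaced C1483Y library. Its mRNA was lower, at 334, 487 and 369 CPM in WT, 738, 478 and 641 CPM in C1483Y and 534, 620.5 and 182 CPM in L2427P. Every footprint library was above every mRNA library.

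Tmsb10, on chromosome 6 (72957347 to 72958748), showed the opposite order. Its mRNA was at 4343, 1660.0 and 2364 CPM in WT, at 1959, 2693 and 3286 CPM in C1483Y and at 1492, 2555 and 1925 CPM in L2427P. Its footprints were at 15.6, 767 and 694 CPM in WT, 723 and 777 CPM in C1483Y and 392, 491 and 684 CPM in L2427P. All footprint libraries lay below all mRNA libraries, and WT replicate 1, with 120 counts, lay far below the other 7.

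The profilins were uneven. Pfn1 (chromosome 11, 70651844 to 70656799) had footprints of 172 to 591 CPM (median 484 CPM). Pfn1 mRNA was at 50.7 to 242 CPM in 8 libraries and at 0.0599 CPM, 3 counts, in WT replicate 1. Pfn2 (chromosome 3, 57841895 to 57847757), the profilin known as the neuronal form, had a median of 179 CPM in footprints and 121 CPM in mRNA. It had 2 footprint counts in L2427P replicate 1 and 0 mRNA counts in L2427P replicate 3, and its highest values in both assays were those of C1483Y replicate 1, at 328 CPM and 265 CPM.

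Marcksl1 (chromosome 4, 129513581 to 129515981) was low in footprints like Tmsb10. Its mRNA was at 1553, 1732 and 1260.1 CPM in WT, 2161, 1682 and 1274 CPM in C1483Y and 1725, 1275 and 735 CPM in L2427P. Its footprints were at 245, 618 and 219 CPM in WT, 126 and 399 CPM in C1483Y and 72.9, 350.0 and 213 CPM in L2427P. The assays did not overlap. RefSeq names 5 Marcksl1 pseudogenes (Marcksl1-ps1 to Marcksl1-ps5). The Marcksl1 counts of either assay may miss reads that align to several places, which was not tested.

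Marcks (chromosome 10, 37133243 to 37138926) had its highest footprints in WT. They were at 1241, 2041 and 425 CPM in WT, 299.8 and 942 CPM in C1483Y and 762, 751 and 375 CPM in L2427P. The mutants all lay below the 2 higher WT libraries, and the lowest WT library lay within the mutants. Marcks mRNA was at 253 to 755 CPM in 8 libraries and at 0.259 CPM, 13 counts, in WT replicate 1, the library that also lacked Pfn1.

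Gap43 (chromosome 16, 42248552 to 42340651) was the most variable of the 10 genes in footprints, with a coefficient of variation of 95.2%. Footprints were at 734, 584 and 234 CPM in WT, 0.295 and 292 CPM in C1483Y and 0.821, 244 and 121 CPM in L2427P. The low values are 7 and 11 counts. Of the 5 mutant libraries 3 lay below every WT library, while C1483Y replicate 2 and L2427P replicate 2 lay just above WT replicate 3, the library whose counts are multiples of 3. Gap43 mRNA was at 139, 61.4 and 26.2 CPM in WT, 87.2, 108 and 221 CPM in C1483Y and 179.6, 89.2 and 0 CPM in L2427P. Here the groups overlapped, with the highest library in C1483Y.

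Basp1 (chromosome 15, 25363277 to 25413764), a membrane protein related to Gap43 in its lipid binding, had footprints of 1405, 1129.7 and 466 CPM in WT, 539 and 814 CPM in C1483Y (427 CPM in the displaced library) and 1152, 627 and 267 CPM in L2427P. Its mRNA was more even, at 500.3 to 1135 CPM. The highest value of each assay was a WT library.

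**Figure D1:**
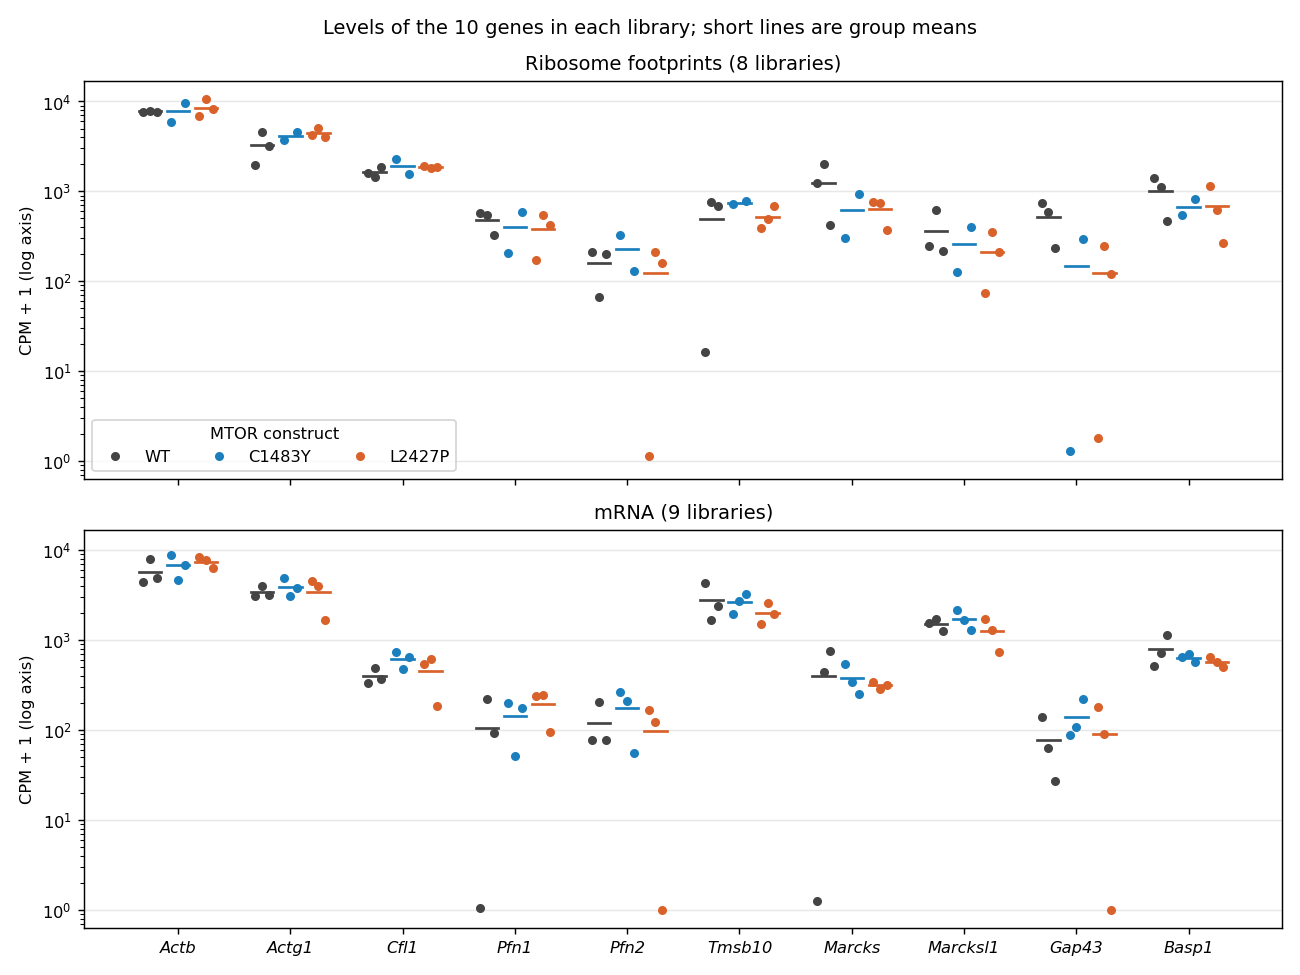
CPM plus 1 (log axis) of each gene in the 8 footprint libraries (top) and 9 mRNA libraries (bottom). Each point is a library, colours mark the construct and short lines are group means. Cfl1 footprints (1447 to 2275 CPM) lie above its mRNA (182 to 738 CPM), while Tmsb10 and Marcksl1 footprints lie below theirs, and single points near 1 are libraries where a gene was almost missing.

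Together the 10 genes took 1.41% to 2.07% of the footprint counts and 1.17% to 2.04% of the mRNA counts. The growth cone membrane proteins as a group varied most in footprints, between 0.0965% and 0.437% of counts (coefficient of variation 55.8%, n = 8), against 22.5% in mRNA (n = 9). The actin-binding proteins varied least in footprints (12.4%). A value more than 10 times below the gene's own median in the assay occurred 4 times in 80 footprint values (5%) and 4 times in 90 mRNA values (4.44%). Among all genes with a median of at least 100 CPM the shares were 7.35% and 5.89%. Missing values were thus about as frequent in these genes as in other abundant genes. They fell in footprint libraries WT 1 (Tmsb10), C1483Y 1 (Gap43) and L2427P 1 (Gap43, Pfn2) and in mRNA libraries WT 1 (Pfn1, Marcks) and L2427P 3 (Pfn2, Gap43).

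**Figure D2:**
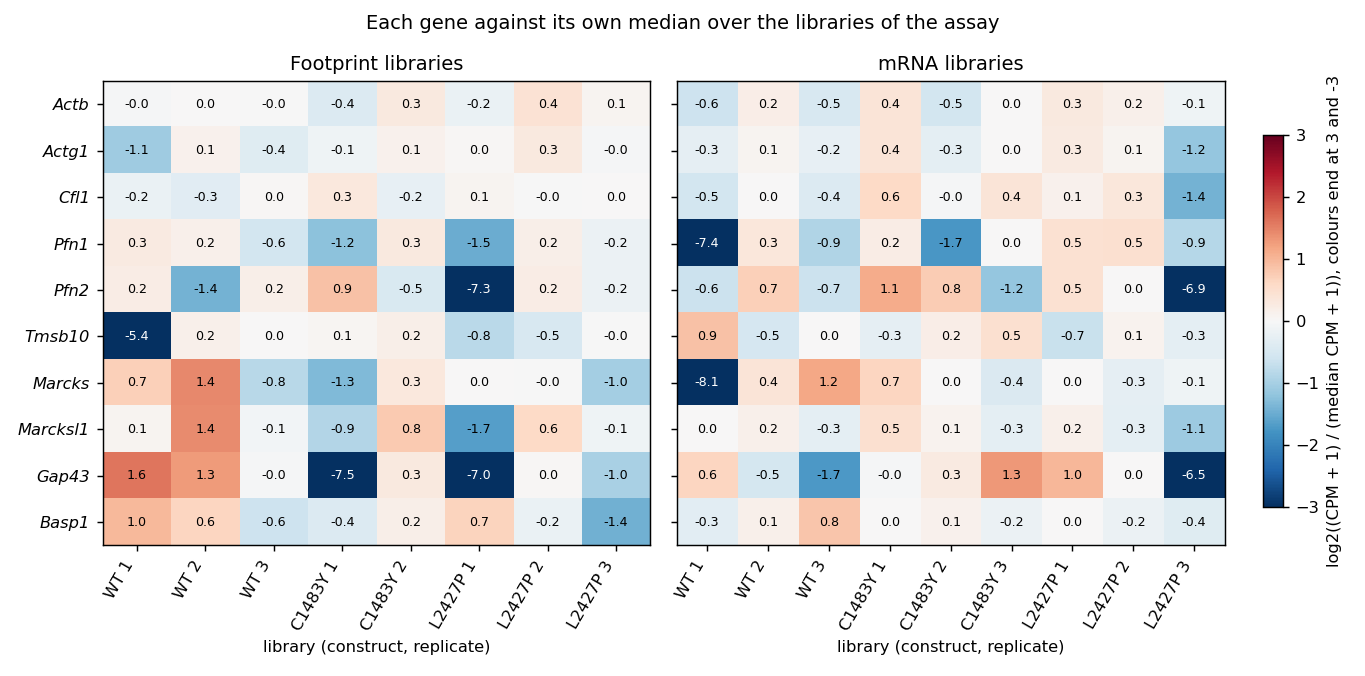
Log2 ratio of each gene's CPM plus 1 to its own median plus 1 over the libraries of the assay, for 8 footprint and 9 mRNA libraries (columns). The numbers in the cells are the ratios, red is above and blue below the median, and the dark blue cells are the 8 values more than 10 times below the median.

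Footprint and mRNA levels were then compared within the constructs, which asks how high the footprints of a gene were for its mRNA, relative to other genes. Both levels are counts per gene, and no coding lengths were at hand. The ratio may therefore also depend on how much of each mRNA is coding, which was not tested. It is not a measure of ribosome occupancy alone. Averaged over the 3 constructs, Cfl1 was higher in footprints than in mRNA, Actb slightly higher, and Tmsb10 and Marcksl1 lower. Among 8876 genes tested by edgeR's quasi-likelihood test, 148 (1.67%) were called higher at a Benjamini-Hochberg adjusted p below 0.05 and 100 (1.13%) lower. Of the 10 genes, 2 were called higher and 2 lower. DESeq2 also called 4, with Pfn1 in place of Actb. The median log2 ratio was 0.49 over the 10 genes, against -0.32 over all genes tested and 0.29 over the 1371 genes with a mean of at least 100 CPM in both assays. The split of calls over all genes depended on the scaling: with TMM factors set within each assay it was 105 higher and 133 lower, with library totals 118 and 138, with DESeq2 size factors 196 and 96, and by DESeq2's own test 552 and 1065. TMM within each assay moved the median of all genes by -0.24.

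Cfl1, which severs filaments, was 4.24-fold higher in footprints, at 2.08 on the log2 scale (SE 0.31, edgeR adjusted p = 4.58e-09). It stood at the 96.1 percentile of the abundant genes. The call held in all 27 alternative fits, the displaced library aside, with log2 ratios of 1.86 to 2.30. With the displaced library added as deposited the log2 ratio was 2.03, with an adjusted p of 0.339. Per construct the ratio of mean CPM was 4.13 ± 0.574 in WT, 3.09 ± 0.696 in C1483Y and 4.19 ± 1.27 in L2427P (± SE from 3 mRNA libraries and 3, 2 and 3 footprint libraries).

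Actb was 1.38-fold higher in footprints, at 0.47 on the log2 scale (SE 0.13, edgeR adjusted p = 0.0207). Its footprint libraries (5858 to 10615 CPM) overlapped its mRNA libraries (4437 to 8909 CPM), and the call was lost in 19 of 27 alternatives, adjusted p ranging from 2.57e-06 to 1. With TMM set within each assay it was at 0.23, a drop as large as that of the median of all genes. Actg1 was at 0.29 (SE 0.16, edgeR adjusted p = 0.410) and did not pass.

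Tmsb10, which holds actin monomers, was 3.68-fold lower in footprints, at -1.88 on the log2 scale (SE 0.29, edgeR adjusted p = 9.39e-08). Its log2 ratio was -2.13 to -1.68 over 27 alternatives, and it lost its call in 5 of them: without footprint library C1483Y replicate 2 (adjusted p = 0.0909), leaving out the third L2427P mRNA library (adjusted p = 0.104), with library pairs as a block (adjusted p = 0.0905), without mRNA libraries WT 1 and L2427P 3 together (adjusted p = 0.175) and without footprint libraries C1483Y 1 and L2427P 1 together (adjusted p = 0.285). The ratio of mean CPM was 0.176 ± 0.0997 in WT, 0.283 ± 0.0423 in C1483Y and 0.262 ± 0.0592 in L2427P. The WT ratio includes the library with 120 footprint counts.

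Marcksl1, a membrane protein related to Marcks, was 4.84-fold lower in footprints, at -2.27 (SE 0.37, edgeR adjusted p = 2.25e-07), at the 2.12 percentile of the abundant genes. It was called in all 27 alternatives, with log2 ratios of -2.60 to -1.87. Its ratio of mean CPM was 0.238 ± 0.0877 in WT, 0.154 ± 0.0833 in C1483Y and 0.170 ± 0.0752 in L2427P. Its relative Marcks lay on the other side, at 1.32 (SE 0.49, edgeR adjusted p = 0.175), which did not pass, and was called only without mRNA libraries WT 1 and L2427P 3 together (1.02, adjusted p = 0.0384). The other 4 genes did not pass either, with log2 ratios of 1.75 (SE 0.69) for Pfn1, 1.29 (SE 0.92) for Gap43, 0.50 (SE 1.08) for Pfn2 and 0.45 (SE 0.38) for Basp1, and edgeR adjusted p of 0.198 to 0.921.

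The library values gave the same 3 genes without a model. Footprint CPM was above mRNA CPM in every library for Cfl1 and below it in every library for Tmsb10 and Marcksl1, while the assays overlapped for the other 7 genes. Of the 8876 genes, 1.12% lay wholly above and 1.31% wholly below.

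**Figure D3:**
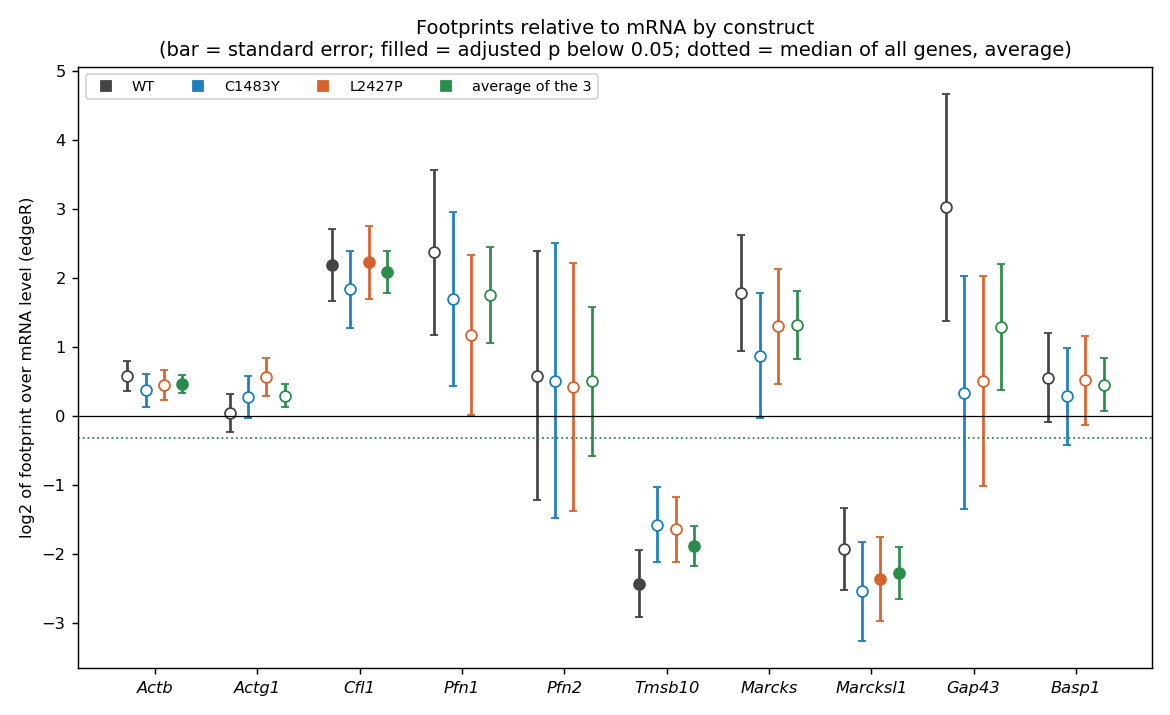
Log2 ratio of footprint to mRNA level of each gene in WT, C1483Y, L2427P and averaged over them (edgeR estimates, bars are standard errors, filled points have an adjusted p below 0.05, and the dotted line is the median of all genes in the average, -0.32). Cfl1 is near 2 in each construct, Tmsb10 and Marcksl1 lie between -1.58 and -2.54, and the bars of Pfn1, Pfn2, Marcks and Gap43 are wide.

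Within single constructs fewer genes passed. In WT, edgeR called 15 genes higher (0.169% of 8876) and 44 lower (0.496%), among them Cfl1 at 2.19 (SE 0.52, adjusted p = 0.00709) and Tmsb10 at -2.43 (SE 0.48, adjusted p = 0.000344). In L2427P it called 23 higher (0.259%) and 23 lower (0.259%), among them Cfl1 at 2.23 (SE 0.52, adjusted p = 0.00671) and Marcksl1 at -2.36 (SE 0.60, adjusted p = 0.0216). In C1483Y, with 2 footprint libraries, it called 23 genes (0.259%) and 0 of the 10, of which 3 had an unadjusted p below 0.05 and DESeq2 called 2. There Cfl1 was at 1.83 (SE 0.56, adjusted p = 0.178), Tmsb10 at -1.58 (SE 0.54, adjusted p = 0.411) and Marcksl1 at -2.54 (SE 0.71, adjusted p = 0.110), all edgeR values. Cfl1 lost its call in WT without mRNA library WT replicate 1 (edgeR adjusted p = 0.176) or WT replicate 3 (adjusted p = 0.143), in L2427P without footprint library L2427P replicate 2, and in both without the filter on low counts. Tmsb10 in WT lost its call in 7 of 27 alternatives, among them leaving out mRNA library WT replicate 1. Marcksl1 in L2427P kept its call in 15 of 27 alternatives. Whether a gene passed in one construct and not in another is no difference between them, and the tests of that difference are those of translational efficiency below.

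The constructs were compared next, each mutant against WT, the average of the mutants against WT, and the mutants against each other. Both mutant comparisons share the WT libraries. In footprints, the membrane proteins Gap43, Marcks, Marcksl1 and Basp1 had lower values in both mutants, and so did Pfn1. Actg1 and Tmsb10 had higher ones, and Pfn2 was higher in C1483Y and lower in L2427P. Marcksl1 and Pfn1 lay within 1 SE of WT in both mutants, as did Actb and Cfl1. Of the 10 genes, 0 passed edgeR's test. Over 10315 genes it called 0.0% in each of the 4 footprint comparisons, with 131 to 458 genes at an unadjusted p below 0.05 and 288 to 804 calls by DESeq2, of which 0 were among the 10 genes. In bulk libraries of sorted neurons, a change in the mix of cells and a change in each cell cannot be told apart.

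Mean Gap43 footprint CPM was 517 ± 257 for the 3 WT libraries, 146 ± 206 for the 2 C1483Y libraries and 122 ± 122 for the 3 L2427P libraries (± SD). The log2 fold change was -1.98 (SE 1.33) in C1483Y, -2.29 (SE 1.16) in L2427P and -2.14 (SE 0.99) for both mutants (edgeR adjusted p = 0.725, 0.764 and 0.790). The mutants include the 2 libraries with 7 and 11 counts. Without both of them the log2 fold change of the mutants was -1.56 (SE 0.73, edgeR adjusted p = 0.978). Without C1483Y replicate 2, which leaves the library of 7 counts alone in its group and assumes that it varies like the others, it was -6.70 (edgeR adjusted p = 3.90e-05), with -10.87 for C1483Y alone (adjusted p = 0.000243). Gap43 mRNA gave 0.53 (SE 1.98, edgeR adjusted p = 1) for both mutants.

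Mean Marcks footprint CPM was 1236 ± 808 for the 3 WT libraries, 621 ± 454 for the 2 C1483Y libraries and 629 ± 220 for the 3 L2427P libraries (± SD). The log2 fold change of both mutants was -1.10 (SE 0.40, unadjusted p = 0.00570, edgeR adjusted p = 0.790), nearly the same in C1483Y (-1.08, SE 0.52) and L2427P (-1.11, SE 0.45). It passed in 1 of 15 alternatives, without C1483Y replicate 2, at -1.69 (edgeR adjusted p = 0.0436), a fit that leaves C1483Y replicate 1 alone in its group. Without WT replicate 2, the library at 2041 CPM, Marcks was at -0.76 (SE 0.52, edgeR adjusted p = 0.796). Basp1 was at -0.71 (SE 0.41), Marcksl1 at -0.69 (SE 0.84) and Pfn1 at -0.45 (SE 0.61) for both mutants, with edgeR adjusted p of 0.790 to 1. Each depended on single WT libraries: Basp1 was at -0.17 and Pfn1 at -0.15 without WT replicate 1, and Marcksl1 at -0.22 without WT replicate 2. Without WT replicate 3 they were at -1.17, -0.85 and -1.09.

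The actins and Cfl1 had the smallest standard errors in footprints. Both mutants were at -0.02 (SE 0.12) for Actb, 0.37 (SE 0.18, unadjusted p = 0.0371, edgeR adjusted p = 0.790) for Actg1 and 0.13 (SE 0.26) for Cfl1. Actg1 stood at 0.36 in C1483Y and 0.38 in L2427P, and 2 of 5 mutant libraries lay above the highest WT library. Its value for both mutants was 0.22 without WT replicate 1 and 0.63 without WT replicate 2. With the displaced library as deposited the values were -0.16, 0.25 and 0.04. Tmsb10 was at 0.40 (SE 0.54), with its low WT library included, and Pfn2 at -0.04 (SE 1.29). Between the mutants the log2 differences ran from -1.01 (Pfn2, SE 1.59) to 0.07 (Actb, SE 0.15), all with an edgeR adjusted p of 1. Over the 10 genes the median log2 fold change of both mutants was -0.25, while all genes had a median of -0.02 and abundant genes one of -0.05. With DESeq2 size factors these medians were -0.56 and -0.13 for the 10 genes and all genes.

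In mRNA, edgeR called 0.0% of 9558 genes in each mutant comparison with WT and 0.0105%, a single gene, between the mutants. None of the 10 genes passed in any of the 4, while 152 to 356 genes had an unadjusted p below 0.05 and DESeq2 called 172 to 502 genes, 0 of them among the 10. Mean Tmsb10 CPM (± SD over 3 libraries) was 2789 ± 1391 for WT, 2646 ± 665 for C1483Y and 1991 ± 534 for L2427P. Its log2 fold change against WT was -0.16 (SE 0.26) in C1483Y. In L2427P it was -0.68 (SE 0.26, unadjusted p = 0.00901, edgeR adjusted p = 1), where the median of all genes was -0.28. The WT mean includes replicate 1 at 4343 CPM, and without that library the Tmsb10 value was -0.28. Without mRNA libraries WT 1 and L2427P 3 together it was -0.04. Mean Cfl1 mRNA CPM was 397 ± 80.1 for WT, 619 ± 131 for C1483Y and 445 ± 232 for L2427P (± SD, 3 libraries each), with log2 fold changes of 0.56 (SE 0.57) and 0.07 (SE 0.56). The other log2 fold changes against WT lay between -0.65 (Basp1 in L2427P, SE 0.48) and 0.76 (Gap43 in C1483Y, SE 2.24). The standard errors of Pfn1, Pfn2, Marcks and Gap43 were 1.51 to 2.24, and each of these genes had a library with almost no counts. Those of Actb, Actg1, Cfl1, Tmsb10, Marcksl1 and Basp1 were 0.26 to 0.58.

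Translational efficiency, footprint level over mRNA level, was compared between the constructs as the interaction of assay and construct over 17 libraries. EdgeR called 0.0% of 8876 genes in each of the 4 comparisons, with 320 to 375 genes at an unadjusted p below 0.05, and DESeq2 called 478 to 875. None of the 10 genes passed by either tool or had an unadjusted p below 0.05 by edgeR. Gap43 had the lowest value for both mutants, -2.60 (SE 1.95), and Tmsb10 the highest, 0.82 (SE 0.57). Cfl1 was at -0.16 (SE 0.63) and Marcksl1 at -0.52 (SE 0.72), so their unequal footprint and mRNA levels were not shown to differ between the constructs. Actb was at -0.17 (SE 0.27) and Actg1 at 0.38 (SE 0.34). The median over the 10 genes was -0.17, while all genes had a median of 0.28 and abundant genes one of 0.09. In none of the 27 alternatives did any of the 10 genes pass in any of the 4 comparisons.

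**Figure D4:**
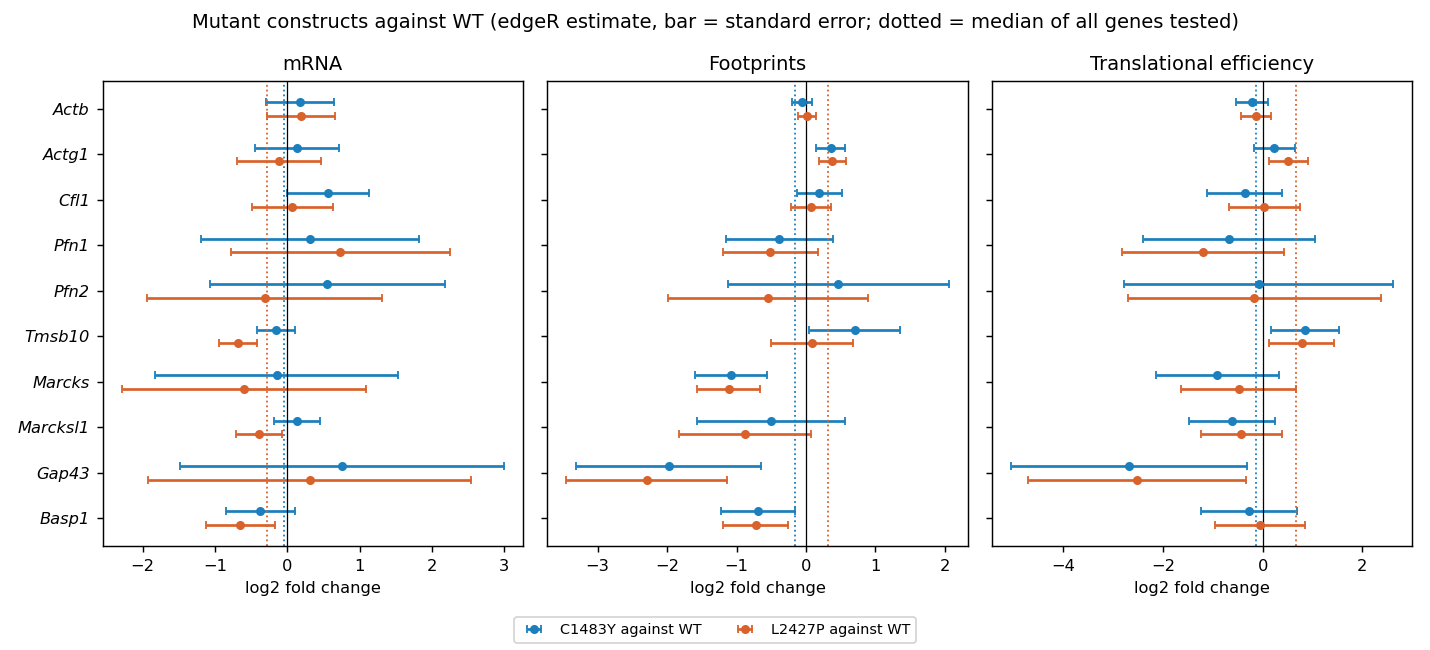
Log2 fold changes of C1483Y and L2427P against WT for mRNA, footprints and translational efficiency (edgeR estimates, bars are standard errors, dotted lines are the medians of all genes tested). None has an adjusted p below 0.05. Actb, Actg1 and Cfl1 have the shortest bars in footprints, and Gap43 lies farthest to the left in footprints, at -1.98 and -2.29.

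The genes did not vary as a unit from library to library. Over 17 libraries, with log2(CPM + 1) centred within each assay, the Pearson correlation was 0.90 for Pfn1 with Marcks and 0.82 for Marcksl1 with Gap43, and -0.50 for Tmsb10 with Basp1. The first pair shares the mRNA library WT replicate 1, in which both genes were almost missing. For the second pair, Gap43 was almost missing from footprint library L2427P replicate 1 and missing from mRNA library L2427P replicate 3. Marcksl1 had its lowest value of each assay in the same libraries. Actb correlated with Actg1 at 0.47, and Cfl1 with Actg1 at 0.68. Other genes with a mean of at least 100 CPM in both assays numbered 1370. Among them, the patterns most like that of Actb were those of Pfn1 (0.71), Puf60 (0.64) and Crmp1 (0.62). Actb mRNA was also lowest in WT replicate 1, where Pfn1 was almost missing. The patterns most like that of Cfl1 were those of Top2b (0.87), Psmb7 (0.86) and Aldh18a1 (0.86). For Gap43 they were BC018507 (0.86), Mrpl28 (0.86) and Cdk5r1 (0.85). The points are libraries that share depth and missing genes, so these values are descriptions.

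The other actin regulators numbered 64 listed genes, 61 in the files and 58 or 59 tested. By edgeR 0 of them were called in any comparison of constructs, and DESeq2 called at most 3 in any of these. For footprints against mRNA in the average, 2 were called by edgeR, and both were also called under each of the 4 other scalings or tests tried. Tmsb4x encodes thymosin β4, a monomer-binding protein closely related to thymosin β10. Its footprints were at 1163 to 2931 CPM and its mRNA at 4751 to 10315 CPM, without overlap, and its log2 ratio was -1.48 (SE 0.16, edgeR adjusted p = 5.50e-17). Fscn1 encodes fascin, which bundles filaments in filopodia. Its log2 ratio was 2.07 (SE 0.38, edgeR adjusted p = 5.32e-06), with footprints at 567 to 1576 CPM and mRNA at 128 to 537 CPM. The median log2 ratio of the list was 0.41, against 0.29 for abundant genes.

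Of 41 other growth cone genes, 40 were tested in both assays. Again 0 were called between the constructs by edgeR, and at most 1 in any of these comparisons by DESeq2. In the average of footprints against mRNA, 14 were called higher and 3 lower. The median log2 ratio of the list was 0.89, against 0.29 for abundant genes and -0.32 for all genes. The shares called among abundant genes alone are not given here. With TMM within each assay the counts were 11 and 3, with library totals 11 and 4. Map1b, a microtubule-associated protein of growing axons, was at 3.57 (SE 0.18, edgeR adjusted p = 1.79e-81). Its footprints were at 4861 to 7437 CPM and its mRNA at 484 to 1283 CPM. Dpysl2, a collapsin response mediator protein, was at 1.35 (SE 0.18), the adhesion molecule gene Ncam1 at 2.19 (SE 0.30) and the non-muscle myosin heavy chain gene Myh10 at 2.59 (SE 0.39). Calm3, one of the genes for calmodulin, which binds the Gap43 protein, was at -3.09 (SE 0.44). The calmodulin genes encode the same protein, and the Calm3 footprint values fell to 1.63 CPM in the lowest library. The lists and the 10 genes were drawn up with results of these libraries known, and their counts are descriptions beside the 1.67% and 1.13% of all genes.

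Muscle actins were near absent. Acta1, Acta2 and Actc1 were at most 3.13 CPM in any library. Actg2, the smooth muscle γ-actin, was at 106 CPM (1417 counts) in footprint library L2427P replicate 1 and at 0.245 to 0.948 CPM in the other 7 footprint libraries, while Tagln, a smooth muscle marker, was at 0 in all 17 libraries. The part of Actg2 in the actin values of that library was not tested. There Actg1 was at 4238 CPM, within the range of the other L2427P libraries.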

How the data were processed

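Ribosome footprint and mRNA libraries were made with the same small RNA kit, per the labels' protocols. Per the submitters' processing notes, the tools were HTSeq, TopHat2 2.1.1 and Bowtie 1.1.2, with the build mm10. No annotation or strand setting is named. The deposited values of 17 libraries are whole counts by gene symbol. For the displaced footprint library (C1483Y replicate 3) the authors deposited estimated counts, of which 165 are not whole, and they were rounded. No molecular identifiers are named, so a count is not a molecule. The 24035 named genes were used, and 27 names that had become dates, and the summary rows, were left out.

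Counts were filtered by filterByExpr (minimum count 10), scaled by TMM and tested by edgeR 4.0.16 (R 4.3.3) with glmQLFit and glmQLFTest, over 9 mRNA libraries, 8 footprint libraries and 17 libraries together. P-values were adjusted over all genes tested by Benjamini-Hochberg, with a threshold of 0.05. Standard errors are the log2 fold change divided by the root of its F statistic. The scripts were tested on simulated data with the same spread for all genes and changes of 2 on the log2 scale. That test does not measure the power in these libraries, where abundant genes were missing. Nothing in the labels says whether replicates are separate animals, so p-values measure the spread between these libraries. Alternatives were other scalings, no filter, DESeq2 1.42.0, blocks and leaving out libraries.

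The 10 genes were always named. Other genes came from fixed lists, up to 5 called by adjusted p, otherwise up to 3 by CPM, and from the 3 patterns most like Actb, Cfl1 and Gap43. Single genes outside this rule were chosen after their values were seen. The genes, lists and tests were chosen with earlier results of these data known. The annotation at hand gives no exon lengths, so levels are not compared between genes.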

Additional observations from a re-analysis of the deposited data

How the results depend on the processing

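Between constructs, 0 of the 10 genes were called in mRNA or translational efficiency in any alternative. In footprints, leaving out single libraries gave 0 to 1 called genes for C1483Y against WT, 0 to 2 for both mutants and 0 to 1 between the mutants. All of these calls came without C1483Y replicate 2, where Gap43 was at 8.34 in L2427P against C1483Y (edgeR adjusted p = 0.00389), reversed from -0.32 with all libraries. Its lowest value with a library left out was -1.39, without L2427P replicate 2. For footprints against mRNA, the number of the 10 genes called was 4 in the average, 2 in WT, 2 in L2427P and 0 in C1483Y. Leaving out single libraries gave 2 to 4, 0 to 3, 1 to 3 and 0 to 3. The average fell to 2 with the library pair block and without footprint libraries C1483Y 1 and L2427P 1. In WT it was 1 without the filter and 1 with the library pair block. In L2427P it was 0 without the filter, 1 with the library pair block and 1 without those footprint libraries. In C1483Y it rose to 1 with DESeq2 size factors, library totals, the replicate block or TMM within each assay, and to 2 by DESeq2's test and without mRNA libraries WT 1 and L2427P 3. Leaving out those pairs of libraries was chosen after seeing the data. Same-numbered libraries did not deviate together (correlations of -0.07 to 0.06), and differently numbered ones within an assay gave -0.09 to 0.09. With many genes missing from single libraries, these values cannot decide whether the numbers pair the libraries. The replicate block changed no other count of the 10 genes.

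DESeq2's test called 1617 genes in the average against 248, 773 in WT against 59, 1083 in C1483Y against 23 and 367 in L2427P against 46. The library pair block called 158 in the average. Without the filter WT had 33 and L2427P 25, library totals gave 39 in C1483Y, and without mRNA libraries WT 1 and L2427P 3 the counts were 98 in WT, 96 in C1483Y and 82 in L2427P. Without footprint libraries C1483Y 1 and L2427P 1 C1483Y had 12. Leaving out single libraries gave 188 to 382 in the average, and up to 153 footprint calls between constructs, without C1483Y replicate 2. The split in WT was 15 higher and 44 lower, 37 and 33 with DESeq2 size factors. Of 60 group mean levels, 56 moved by less than 1 SD with TMM-scaled library sizes. Limits: the median standard error of abundant genes for both mutants was 0.95 in mRNA, 0.97 in footprints and 1.66 in translational efficiency. A change of 1 on the log2 scale is close to or below these errors.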
